A study of Sus scrofa domesticus with 9 samples.

Results

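CITED2 and 6 genes of the hypoxia pathway (HIF1A, EPAS1, ARNT, VEGFA, EGLN1 and EGLN3) were followed in the lung of pigs that had eaten feed with a standard or an increased dose of cholecalciferol (vitamin D3). They are 7 of the 35670 genes in the table, and all 7 had a mean normalized count over 20, as did 12446 genes. CITED2 was selected on its measured difference between the doses in these libraries, and the other genes were chosen by name as partners in its pathway with results of these libraries known. The dose differences of the 7 genes are therefore given as a description, with no test. All pigs are labelled female, 1 library per pig. The study's methods also name females, but its discussion names males, and the labels were followed. The 4 standard dose pigs (replicates 9, 17, 33 and 41) received 2000 IU per kg of grower feed and 1500 IU per kg of finisher feed, and the 5 increased dose pigs (replicates 3, 19, 27, 51 and 59) received 3000 and 2500 IU per kg. Feeding lasted 88 days in individual pens, and the lung sample came from the middle of the upper lobe on the left side after slaughter. Neither group went without vitamin D, and the age of the pigs is not given in the sources used here.

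Cells sense oxygen through the hypoxia-inducible factors (HIF). An alpha subunit, encoded by HIF1A or EPAS1 (HIF-2 alpha), is hydroxylated by the EGLN enzymes when oxygen is present and is then bound by VHL and degraded. When oxygen falls, the alpha subunit persists, pairs with the beta subunit ARNT, recruits the coactivators CBP and p300, and raises the transcription of genes such as VEGFA, the main growth factor of blood vessels. CITED2 is itself HIF-inducible and competes with the HIF alpha subunits for the same domain of CBP and p300, and so restrains HIF activity. Much of this control acts on protein stability, which mRNA counts do not measure.

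The libraries were made by 3′ mRNA-Seq, which reads the end of each polyadenylated transcript. A transcript gives about the same number of fragments whatever its length, so that levels of different genes were compared without dividing by length. How completely the annotation covers the 3′ end of each gene also bears on its level and was not tested. The normalized count used below is the read count divided by the size factor of the library. Between 4253502 and 5919294 reads were assigned to genes per library. Standard dose replicates 9 and 41 stood apart: their median Spearman correlations with the other libraries were 0.751 and 0.831, against 0.912 to 0.933 in the other 7 libraries. Replicate 9 had the highest value of 10 of 10 hepatocyte markers, with a summed normalized count of 343301.6 against 27091.4 to 96942.2 elsewhere, and the lowest of 7 of 7 type 2 pneumocyte markers. Replicate 41 had the highest value of 7 of 7 skeletal muscle markers, summing to 240779.5 against 34353.4 to 137004.9 elsewhere, and the lowest of 8 of 8 macrophage markers. Markers of type 2 pneumocytes (SFTPC, SFTPA1), type 1 pneumocytes (PDPN) and endothelium (PECAM1) were present in all 9 libraries. The part of other cell types in the results below was not tested, and the dose differences of the 7 genes are given with and without these 2 libraries. In a tissue sample, fewer cells of a type and less RNA per cell cannot be told apart.

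EPAS1 was by far the most abundant of the 7 genes, followed by EGLN1, HIF1A, CITED2, VEGFA, ARNT and EGLN3. The neighbours in this order were compared within each library as log2 ratios, with an exact two-sided sign-flip permutation test over the 9 libraries and Benjamini-Hochberg adjustment over the 6 pairs. EPAS1 exceeded EGLN1 in 9 of 9 libraries, by 2.88 ± 1.26 on the log2 scale (SD, n = 9, exact permutation p = 0.00391, the smallest that 9 libraries can give, adjusted p = 0.0117). EGLN1 exceeded HIF1A in 9 of 9 libraries, by 1.34 ± 0.84 (SD, n = 9, exact permutation p = 0.00391, adjusted p = 0.0117). HIF1A was above CITED2 in 7 of 9 libraries, by 1.18 ± 1.20 (SD, n = 9, exact permutation, adjusted p = 0.0352), and VEGFA was above ARNT in 8 of 9, by 0.81 ± 0.78 (SD, n = 9, exact permutation, adjusted p = 0.0352). These 2 steps did not pass without replicates 9 and 41, when HIF1A was above CITED2 by 0.75 and VEGFA above ARNT by 0.65. Leaving out 1 library also ended the first call for 7 of 9 libraries (standard dose replicates 9, 17, 33 and 41, increased dose replicates 3, 19 and 51) and the second for 6 (standard dose replicates 9, 17 and 41, increased dose replicates 3, 51 and 59). CITED2 and VEGFA did not differ beyond their spread (1.20 ± 1.89, SD, n = 9, exact permutation, adjusted p = 0.108), and neither did ARNT and EGLN3 (0.22 ± 1.04, SD, n = 9, exact permutation, adjusted p = 0.59). CITED2 passed VEGFA without standard dose replicate 41 (1.67), and the order of ARNT and EGLN3 turned without standard dose replicate 9 (-0.05). The mean log2 ratio of CITED2 to VEGFA was -0.18 at the standard dose and 2.30 at the increased dose. The mean log2 ratio of HIF1A to CITED2 was 2.13 at the standard dose and 0.42 at the increased dose. CITED2 was above HIF1A only in increased dose replicates 27 and 59. These values are a description, since CITED2 was selected on this contrast. The tests of both pairs pooled the doses, so their results depend on the same contrast and lend no support to a place of CITED2 in the order. VEGFA was the higher only in standard dose replicates 9 (111.9 against 53.71 for CITED2) and 41 (103 against 16.79). Without these 2 libraries CITED2 was above VEGFA in 7 of 7, by a mean of 2.06 over both doses.

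The lung is known for high EPAS1 expression in its blood vessels, and EPAS1 mRNA exceeded HIF1A mRNA in every library. The ratio of EPAS1 to HIF1A normalized counts ran from 7.48 to 23.5 at the standard dose and from 20.8 to 26.4 at the increased dose. The lowest ratios, 7.48 and 12.5, were those of replicates 41 and 9. EGLN1, the main oxygen-sensing hydroxylase, had 15.2 to 44.2 times the normalized count of EGLN3, a hydroxylase that is itself a HIF target, in 8 libraries and 165 times in replicate 9.

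**Figure D1:**
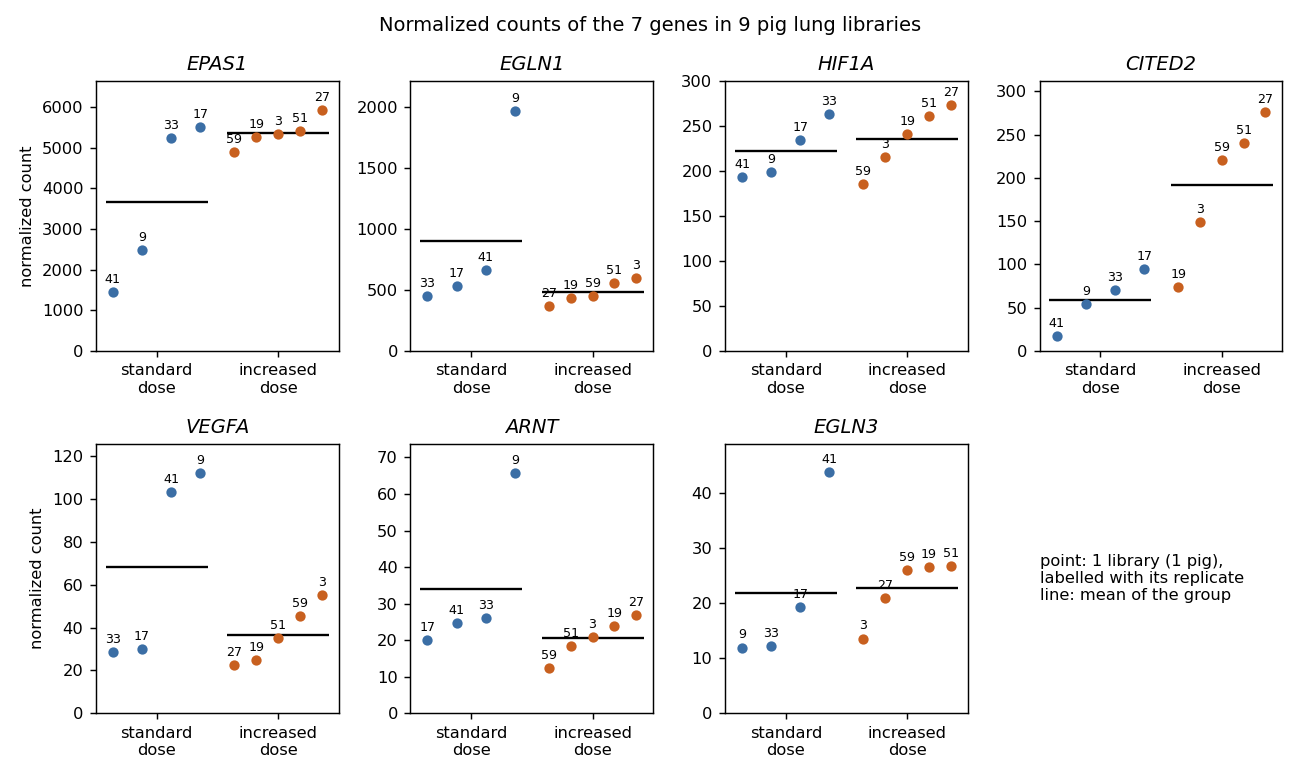
Normalized counts of each gene (y axis, linear from 0, scaled per panel) in the 4 standard dose and 5 increased dose libraries, ordered by level from EPAS1 to EGLN3. Each point is 1 library labelled with its replicate, and lines are group means. CITED2 stands at 16.79 to 95.08 in the standard dose libraries and at 73.36 to 276 in the increased dose libraries. The lowest CITED2 and EPAS1 values belong to standard dose replicate 41, and the highest EGLN1 and ARNT values to standard dose replicate 9.

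The promoters of CITED2, EPAS1 and VEGFA are shown because these are, of the 7 genes, the one with the widest dose difference, the most abundant HIF subunit and the classical HIF target. Each is the stretch of 300 bases before the outermost annotated start (RefSeq or Ensembl, Sscrofa11.1), given 5′ to 3′ on the strand of the gene. Capitals mark the core of the hypoxia response element, ACGTG or GCGTG, searched on both strands.
CITED2 promoter, chr1:25155352-25155651, plus strand: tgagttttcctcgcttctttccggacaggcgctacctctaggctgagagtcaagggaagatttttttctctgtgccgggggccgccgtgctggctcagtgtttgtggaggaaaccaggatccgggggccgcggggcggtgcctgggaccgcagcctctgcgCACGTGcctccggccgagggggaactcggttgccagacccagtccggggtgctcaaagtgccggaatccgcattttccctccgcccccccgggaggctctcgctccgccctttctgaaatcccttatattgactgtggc
VEGFA promoter, chr7:38745752-38746051, plus strand: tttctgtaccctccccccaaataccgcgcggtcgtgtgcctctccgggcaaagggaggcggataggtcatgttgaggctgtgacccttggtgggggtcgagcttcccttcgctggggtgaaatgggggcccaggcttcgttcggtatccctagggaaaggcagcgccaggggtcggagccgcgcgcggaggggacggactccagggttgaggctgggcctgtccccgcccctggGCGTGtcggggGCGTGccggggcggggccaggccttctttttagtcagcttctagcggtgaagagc
EPAS1 promoter, chr3:94254080-94254379, minus strand: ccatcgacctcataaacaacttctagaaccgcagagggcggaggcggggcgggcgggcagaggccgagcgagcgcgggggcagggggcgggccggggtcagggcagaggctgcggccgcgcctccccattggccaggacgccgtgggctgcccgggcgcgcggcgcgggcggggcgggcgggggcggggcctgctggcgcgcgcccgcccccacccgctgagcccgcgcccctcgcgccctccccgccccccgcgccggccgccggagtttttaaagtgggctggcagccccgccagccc
The CITED2 window held 1 site, the palindrome CACGTG, in which both strands read the core, starting 139 bases before the annotated start. The VEGFA window held 2 sites, starting 66 and 55 bases before the start. The EPAS1 window held none. Of the other promoters, HIF1A held 3 sites, ARNT and EGLN1 1 each and EGLN3 none. Thus 5 of the 7 windows held a core, against 45.3% of the 20952 promoters searched in the same way. The vitamin D response element known as DR3 was not found in any of the 7 windows and was present in 0.0764% of all promoters. A match in these letters is a description and not a site of binding. The start of EPAS1 lies 264 bases from a divergent lncRNA (ENSSSCG00000056286), whose first bases fall in the window shown, and that of CITED2 lies 713 bases from another (ENSSSCG00000055584). Both lncRNAs had 0 reads in the 9 libraries, which allows up to 3 reads.

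CITED2 (ENSSSCG00000004142, chromosome 1, 25155664 to 25160279, plus strand) had the higher mean at the increased dose. Its normalized counts were 53.71, 95.08, 70.46 and 16.79 in standard dose replicates 9, 17, 33 and 41. At the increased dose they were 149.2, 73.36, 276, 240.1 and 220.5 in replicates 3, 19, 27, 51 and 59. Of the increased dose libraries 4 of 5 lay above every standard dose library, and replicate 19 lay inside the standard dose range. The means were 59.01 ± 32.88 (SD, n = 4) and 191.8 ± 80.75 (SD, n = 5), and the fitted log2 fold change, on the log2(normalized count + 1) scale, was 1.79 (SE 0.50). The lowest library, replicate 41, rested on 15 reads (95% Poisson interval 8.4 to 24.7, for counting error only) and the highest, increased dose replicate 27, on 317 (283 to 354). The fold change was 1.28 without replicate 41, the library with the lowest macrophage and the highest skeletal muscle markers, and 1.08 (SE 0.41) without replicates 9 and 41. CITED2 also varied widely between pigs of the same dose: its SD within doses was 0.90 on the log2 scale, against a median of 0.46 over genes of like level.

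Across the whole table limma called 0 of 12446 genes at an adjusted p under 0.05 (0%; smallest adjusted p 0.397; 1514 at an unadjusted p under 0.05), and thus 0 of the 7. At an unadjusted p under 0.05, 5.57% of all genes were higher and 6.60% lower at the increased dose. The quasi-likelihood test of edgeR on the recovered reads also called 0 genes (1873 at an unadjusted p under 0.05). In contrast, 195 genes were called by DESeq2 from the same reads, and 27 of them were higher at the increased dose (0.217% of genes tested). CITED2 was 1 of these 27, and the other 6 genes were not called. Without overlap between the groups, 1.80% of all genes were higher and 2.01% lower, and 0 of the 7 genes had groups that did not overlap. Because CITED2 was selected on this contrast, its calls lend it no support.

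HIF1A (ENSSSCG00000005096, chromosome 1, 190625244 to 190674845), the alpha subunit found in most cell types, differed between the doses by less than its standard error. Its normalized counts were 198.4, 234.9, 263.6 and 193.6 at the standard dose (replicates 9, 17, 33 and 41). They were 215.3, 240.6, 273.4, 260.7 and 185.8 at the increased dose (replicates 3, 19, 27, 51 and 59). The groups overlapped over nearly their whole range, with means of 222.6 ± 32.94 (SD, n = 4) and 235.2 ± 35.26 (SD, n = 5) and a log2 fold change of 0.08 (SE 0.22) that was -0.09 (SE 0.23) without replicates 9 and 41. HIF1A was the steadiest of the 7 genes, with an SD within doses of 0.22 on the log2 scale against a median of 0.41 over genes of like level.

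EPAS1 (ENSSSCG00000008443, chromosome 3, 94165816 to 94254079, minus strand) encodes the alpha subunit prominent in endothelium. Its standard dose normalized counts were 2476.5, 5520.8, 5236.9 and 1448.3 in replicates 9, 17, 33 and 41. The 5 increased dose libraries held 5345.6, 5259.7, 5931.8, 5415.2 and 4903.9 in replicates 3, 19, 27, 51 and 59. Only replicates 9 and 41 were low, and replicates 17 and 33 lay among the increased dose libraries. The means were 3670.6 ± 2020.0 (SD, n = 4) and 5371.3 ± 370.0 (SD, n = 5), with a log2 fold change of 0.75 (SE 0.36) that became 0.00 (SE 0.19) without replicates 9 and 41. The summed endothelial markers were also lowest in these 2 libraries, at 2567.5 in replicate 9 and 3024.3 in replicate 41 against 4018.9 to 5907.4 in the other 7. The 9 markers did not all follow the sum. In replicate 9, 5 were lowest and 1 was highest, and in replicate 41, 4 were lowest and 1 was highest. The part of endothelial content in the EPAS1 values was not tested.

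ARNT (ENSSSCG00000006646, chromosome 4, 98333459 to 98389457), the shared beta subunit, was low and rested on 13 to 44 reads per library. Its normalized counts were 65.64, 20.11, 26.1 and 24.62 at the standard dose (replicates 9, 17, 33 and 41) and 20.8, 23.88, 26.99, 18.55 and 12.52 at the increased dose (replicates 3, 19, 27, 51 and 59). Replicate 9 alone was high, and the other 8 libraries overlapped. The log2 fold change was -0.59 (SE 0.47), -0.23 without replicate 9 and -0.19 without replicates 9 and 41. HIF1A exceeded ARNT 3.02-fold in replicate 9 and 7.86- to 14.8-fold in the others.

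VEGFA (ENSSSCG00000001695, chromosome 7, 38746052 to 38761366) had normalized counts of 111.9, 30.17, 28.71 and 103.0 at the standard dose (replicates 9, 17, 33 and 41). They were 55.17, 24.74, 22.64, 35.04 and 45.26 at the increased dose (replicates 3, 19, 27, 51 and 59). Replicates 9 and 41, the libraries with the most hepatocyte and the most skeletal muscle marker RNA, were high, and the other standard dose libraries lay among the increased dose ones. The means were 68.43 ± 45.18 (SD, n = 4) and 36.57 ± 13.77 (SD, n = 5). The log2 fold change of -0.69 (SE 0.49) turned to 0.23 (SE 0.46) without these 2 libraries.

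EGLN1 (ENSSSCG00000010172, chromosome 14, 59113844 to 59168395) had normalized counts of 1966.3, 529.3, 448.0 and 664.8 at the standard dose (replicates 9, 17, 33 and 41) and of 599.7, 435.0, 364.8, 551.3 and 448.7 at the increased dose (replicates 3, 19, 27, 51 and 59). Replicate 9 was the only library far from the rest. The log2 fold change of -0.66 (SE 0.37) was -0.19 without replicate 9 and -0.04 (SE 0.22) without replicates 9 and 41.

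EGLN3 (ENSSSCG00000001963, chromosome 7, 65805522 to 65833529) was near the lower limit of what was tested, with 8 to 39 reads per library. Its normalized counts were 11.94, 19.2, 12.18 and 43.65 at the standard dose (replicates 9, 17, 33 and 41) and 13.57, 26.44, 20.9, 26.79 and 26.0 at the increased dose (replicates 3, 19, 27, 51 and 59). Replicate 41 was the highest of all, and the groups overlapped. The log2 fold change was 0.22 (SE 0.52), and 0.50 (SE 0.57) without replicates 9 and 41. Without replicate 41 alone its mean fell under 20 and no value was fitted.

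**Figure D2:**
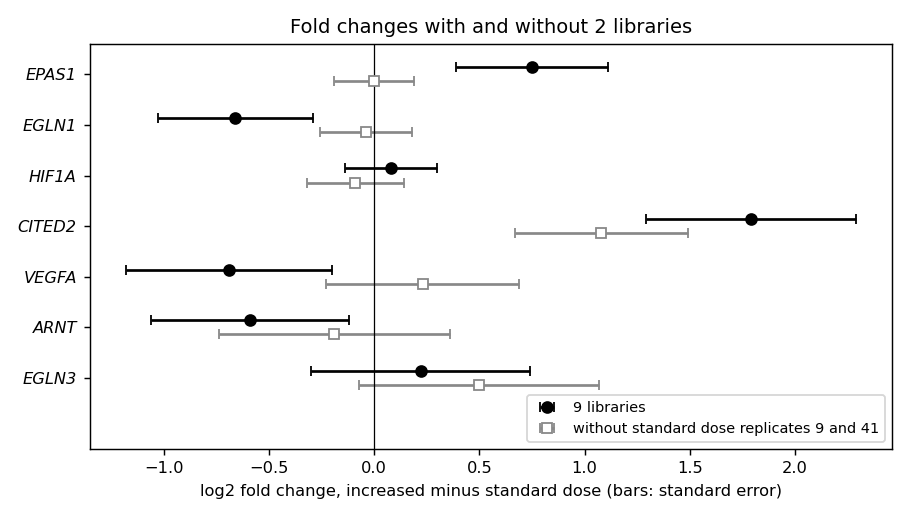
Fitted log2 fold changes (x axis, increased minus standard dose) of the 7 genes with their standard errors, from all 9 libraries (filled circles) and without standard dose replicates 9 and 41 (open squares). CITED2 moves from 1.79 to 1.08, EGLN3 from 0.22 to 0.50, EPAS1 from 0.75 to 0.00 and EGLN1 from -0.66 to -0.04, and VEGFA changes sign from -0.69 to 0.23.

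Whether the 7 genes varied together between pigs of the same dose was examined on deviations from the dose means, with exact two-sided permutation within doses and adjustment over the 21 pairs. None of the 21 pairs passed with all libraries, 1 passed without increased dose replicate 51 and 2 without increased dose replicate 59. VEGFA and EGLN1 gave Pearson r 0.76 (exact permutation p = 0.00903, adjusted p = 0.184) and Spearman rho 0.82 (exact permutation p = 0.00347, adjusted p = 0.0729). Their r was 0.76 without the 2 libraries farthest from the median and 0.76 without replicates 9 and 41. CITED2 and EPAS1 gave r 0.74 (exact permutation p = 0.0201, adjusted p = 0.184; rho 0.85, p = 0.0201, adjusted p = 0.141). Without standard dose replicate 41 and increased dose replicate 19, the farthest libraries, their r was 0.63, and it was 0.35 without replicates 9 and 41. HIF1A and VEGFA gave r -0.80 (exact permutation p = 0.0271, adjusted p = 0.184) and rho -0.80 (exact permutation p = 0.0285, adjusted p = 0.149). That r was -0.86 without the 2 farthest libraries and -0.72 without replicates 9 and 41. EPAS1 and VEGFA had r -0.83 (exact permutation p = 0.0983, adjusted p = 0.413), and -0.56 without replicates 9 and 41. For HIF1A and EPAS1 r was 0.65 (exact permutation p = 0.0351, adjusted p = 0.184), and 0.75 without replicates 9 and 41. ARNT and EGLN1 had r 0.70 with all libraries (exact permutation p = 0.175, adjusted p = 0.607; rho 0.40, p = 0.302, adjusted p = 0.528) and -0.65 without standard dose replicate 9 and increased dose replicate 59, so the relation rested on those libraries.

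**Figure D3:**
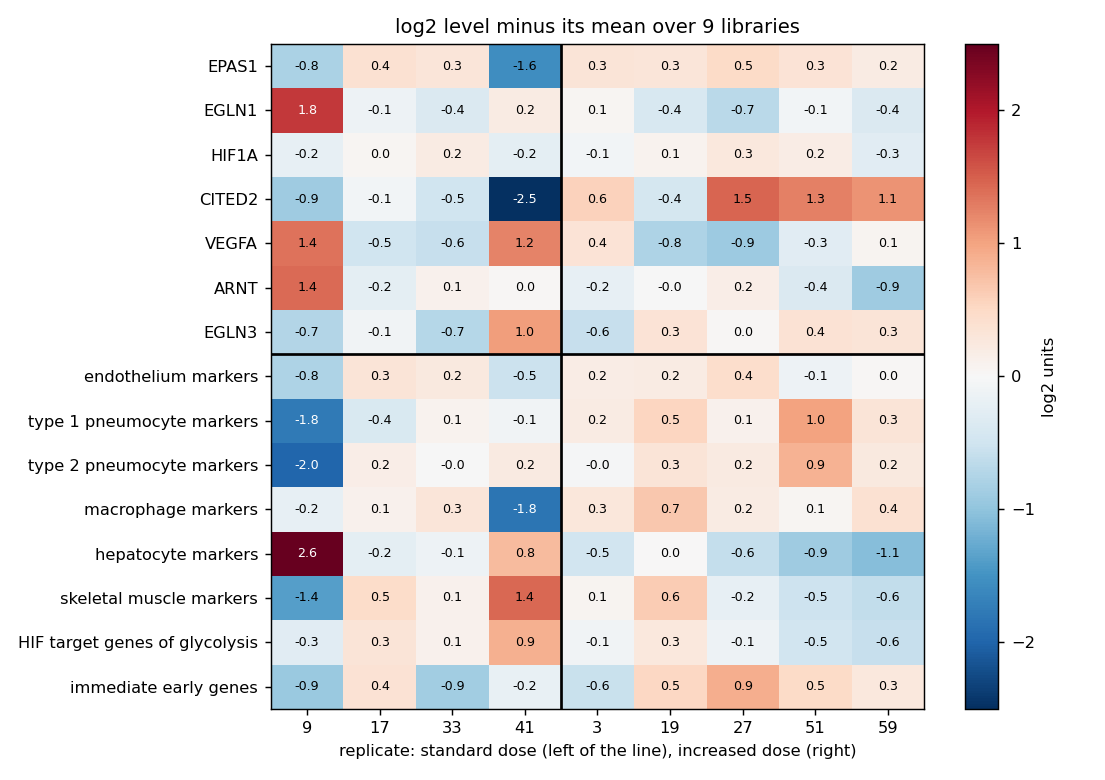
Log2 level of each gene and of the summed normalized counts of gene lists (rows), each minus its mean over the 9 libraries (columns, replicates). Red is above and blue below the mean. Replicate 9 is high for EGLN1, ARNT, VEGFA and hepatocyte markers, and replicate 41 is low for CITED2, EPAS1 and macrophage markers and high for VEGFA, EGLN3 and skeletal muscle markers.

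The other HIF subunits were scarce. ARNT2, a beta subunit best known from neurons, had normalized counts of 0, 31.08, 4.35 and 0 at the standard dose (replicates 9, 17, 33 and 41) and 20.8, 20.47, 61.82, 29.88 and 17.33 at the increased dose (replicates 3, 19, 27, 51 and 59). Replicate 17 lay inside the increased dose range and the other standard dose libraries below it. Its log2 fold change of 2.94 (SE 1.04, limma adjusted p = 0.397) fell to 1.09 without replicates 9 and 41, both of which were at 0 reads, so that the fitted value depends on the pseudocount. HIF3A had 0 reads in every library, which allows up to 3 reads. Genes in use in most cells can also lack reads in this table, since the glycolytic enzyme PGAM1 had 0 as well.

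Of the 9 genes of oxygen sensing and HIF degradation 0 passed the limma threshold. At an unadjusted p under 0.05 VHL, ELOC and RBX1 were higher and none was lower, beside 5.57% higher and 6.60% lower over all genes tested. VHL, ELOC and RBX1 belong to the ubiquitin ligase that marks hydroxylated HIF alpha for degradation. So do ELOB and CUL2, which did not reach that limit. VHL, the substrate receptor of this ligase, averaged 252.4 ± 119.5 (SD, n = 4) and 435.6 ± 72.89 (SD, n = 5) at the standard and increased doses, with a fold change of 0.90 (SE 0.31) on the log2 scale. Its lowest values were 138.8 in replicate 41 and 159.6 in replicate 9, and the fold change was 0.28 without them. RBX1, the RING subunit, was the gene of this list whose groups did not overlap: 578.8, 800.8, 650.7 and 495.8 in replicates 9, 17, 33 and 41 against 847.1 to 965.6 at the increased dose. Over all genes tested, 1.80% were higher without overlap. The log2 fold change of RBX1 was 0.51 (SE 0.20) and 0.30 without replicates 9 and 41. The adaptor subunits differed in sign, with ELOC at 0.68 and ELOB at -0.56. ELOB was highest in replicate 9 (1864.8 against 558.1 to 834.3 elsewhere) and at -0.22 without it. ELOC was lowest in replicate 41 (99.61 against 240.4 to 416.3 elsewhere) and at 0.34 without it. Without replicates 9 and 41 they were at 0.39 (ELOC) and -0.19 (ELOB). The scaffold CUL2 was at 0.19, EGLN2 at -0.07 and HIF1AN, the asparagine hydroxylase that blocks CBP and p300 binding, at -0.33 (0.39, -0.04 and -0.31 without these libraries). The median of the list was 0.19, beside 0.01 over all genes tested.

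The relatives and coactivators of CITED2 had smaller fold changes than CITED2, which was selected on this contrast. CITED1 had a log2 fold change of 0.84 (SE 0.45) that was -0.01 without replicates 9 and 41, and CITED4 one of -0.01 (SE 0.39) that was -0.52 without them. CREBBP and EP300, which encode CBP and p300, were at -0.12 (SE 0.20) and 0.00 (SE 0.24), and at -0.06 and -0.16 without them. EP300 averaged 787.6 ± 172.8 (SD, n = 4) and 787.9 ± 165.9 (SD, n = 5) at the standard and increased doses. Of the other 4 genes of this list, 0 passed any of the 3 tests across genes, and whether CITED2 differed from them was not tested.

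The HIF target genes of glycolysis had a median log2 fold change of -0.11 over 12 genes tested, 6 positive and 6 negative, with 0 past the limma threshold. The most abundant were GAPDH (-0.57, SE 0.32), ALDOA (-0.60, SE 0.29) and PKM (-0.37, SE 0.30). All 3 were highest in replicate 41, and 6 of the 12 genes were highest in that library, which had the highest skeletal muscle markers. Without replicates 9 and 41 the 3 fold changes were -0.46, -0.56 and -0.46, and 4 of the 12 genes of the list were positive, with a median of -0.16. PFKFB3, which makes the activator of phosphofructokinase, was the 1 gene of the list at an unadjusted p under 0.05. Its log2 fold change was 0.92 (SE 0.34) and 0.21 without replicates 9 and 41. Over all genes tested, 5.57% were higher at that limit. PFKFB3 was named after its values were seen. The glucose transporter SLC2A1 was under the limit for testing, with a mean of 1.36.

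Of the other HIF targets 21 of 25 were tested, 16 were positive and 5 negative, and the median was 0.19 (0.10 without replicates 9 and 41). Over all genes tested, 6318 of 12446 were positive, with a median of 0.01. None of these targets passed the limma threshold. At an unadjusted p under 0.05, 3 were higher and 1 lower, beside 5.57% and 6.60% of all genes tested. The groups of 2, ERO1A and WSB1, did not overlap. Both were higher at the increased dose, as were 1.80% of all genes without overlap. ERO1A, an oxidase of the endoplasmic reticulum named here after its values were seen, stood at 113.4 to 235.7 at the standard dose and 250.4 to 348.2 at the increased dose (log2 fold change 0.90, SE 0.25; 0.57 without replicates 9 and 41). WSB1, a subunit of a ubiquitin ligase, stood at 377.4 to 673.8 and 729.9 to 1067.1 (0.70, SE 0.23; 0.41 without them). BNIP3, a mitophagy receptor, was the gene that was lower (-0.68, SE 0.32). It was at 1747.0 in replicate 9 and 414.3 to 675.1 in the other libraries, and at -0.29 without replicates 9 and 41. PLIN2, a coat protein of lipid droplets, was at 0.62 (SE 0.34; 0.32 without replicate 41 and 0.16 without replicates 9 and 41). The erythropoietin gene EPO had 0 reads.

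The most abundant vessel growth factors, each with a higher mean normalized count than VEGFA, had fold changes smaller in size than that of VEGFA with all 9 libraries. VEGFB, ANGPT1 and VEGFD had log2 fold changes of 0.12 (SE 0.22), 0.02 (SE 0.34) and -0.06 (SE 0.44), which were 0.02, -0.39 and -0.42 without replicates 9 and 41. The list of 6 tested ligands had a median of -0.03. Among the 7 receptors, with a median of 0.29, NRP1 was at 0.62 (SE 0.30; 0.81 without replicates 9 and 41) and KDR, the main signalling receptor for VEGFA, at -0.29 (SE 0.30; -0.25 without them). TEK, the angiopoietin receptor, was at 0.65 (SE 0.38) but at 0.20 without replicate 41, where it was lowest (53.72 against 141.2 to 267.3 elsewhere), and at 0.12 without both. No ligand or receptor reached an unadjusted p under 0.05. The median of the receptors was -0.18 without replicate 41.

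**Figure D4:**
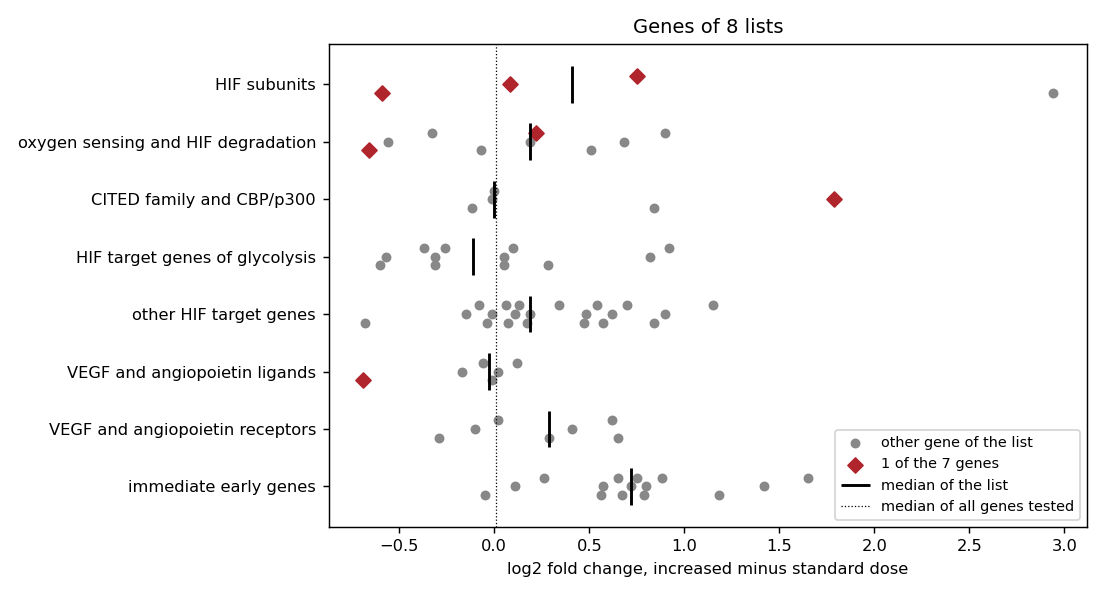
Fitted log2 fold changes (x axis, increased minus standard dose) of the tested genes of 8 lists (rows), with the median of each list as a bar, the 7 genes as red diamonds and the median of all genes tested (0.01) as a dotted line. CITED2, which was selected on this contrast, is at 1.79, above the other 4 genes of its list. The median of the immediate early genes is 0.72. Cell type markers are not drawn; the medians of the type 1 pneumocyte (1.03) and macrophage (0.76) lists are higher.

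The immediate early genes, transcribed within minutes of a stimulus or of tissue handling, included 14 of 15 tested genes with a positive fold change, a median of 0.72 (0.45 without replicates 9 and 41) and 0 genes past the limma threshold. At an unadjusted p under 0.05, 5 were higher and 0 lower, beside 5.57% higher and 6.60% lower over all genes tested. Of those 12446 genes, 6318 had a positive fold change, with a median of 0.01. EGR1 had normalized counts of 546.0, 1540.4, 513.2 and 1160.7 at the standard dose (replicates 9, 17, 33 and 41) and 806.8, 2836.3, 4023.3, 3078.1 and 2081.7 at the increased dose (replicates 3, 19, 27, 51 and 59). Increased dose replicate 27 was the highest library for EGR1, for CITED2 and for 8 of the 15 genes. JUN and DUSP1, the other abundant members, had log2 fold changes of 0.72 (SE 0.36) and 0.65 (SE 0.31), and of 0.66 and 0.45 without replicates 9 and 41. Marker lists of cell types also leaned 1 way: 6 of 6 type 1 pneumocyte markers were positive (median 1.03), as were 7 of 7 type 2 pneumocyte markers (0.69) and 7 of 8 macrophage markers (0.76), while 10 of 10 hepatocyte markers were negative (-1.36). Without replicates 9 and 41 these medians were 0.56, 0.23, 0.04 and -0.38, and the part of cell types in the immediate early genes was not tested. Across the 9 libraries, which share the dose difference, the median Pearson r with CITED2 was 0.60 over these 15 genes, 0.43 over the 21 other HIF targets, -0.46 over the 12 glycolysis genes and 0.02 over all genes tested. Single genes of the 3 lists ran from -0.05 to 0.85, from -0.47 to 0.76 and from -0.89 to 0.73. CITED2 was selected on the dose difference, so these r values partly repeat it and lend no support to a link. No r within doses is given for these lists. The part of handling in the level of CITED2 was not tested.

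Among the genes whose log2 levels were most like that of CITED2 over the 9 libraries were RAP2A, a small GTPase (Pearson r 0.96), the translation initiation helicase EIF4A1 (0.96), the endothelin receptor EDNRB (0.95) and the coatomer subunit ARCN1 (0.95). They were picked from the 12446 genes tested for a high r in these same libraries. Their r values, here and below, follow from that choice and lend no support to a link with CITED2. The points share the dose difference and the 2 libraries that stand apart. On deviations from the dose means, the r of these 4 genes with CITED2 was 0.88 to 0.92, and without replicates 9 and 41 it was 0.89 to 0.90. Each was lowest in replicate 41, as was CITED2. Their log2 fold changes, 0.56 to 1.10, were smaller than that of CITED2. ARCN1, for example, averaged 105.3 ± 26.95 (SD, n = 4) and 228.6 ± 60.46 (SD, n = 5) at the standard and increased doses, and increased dose replicate 19, the lowest increased dose library for CITED2, was also the lowest for ARCN1 (133.1).

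**Figure D5:**
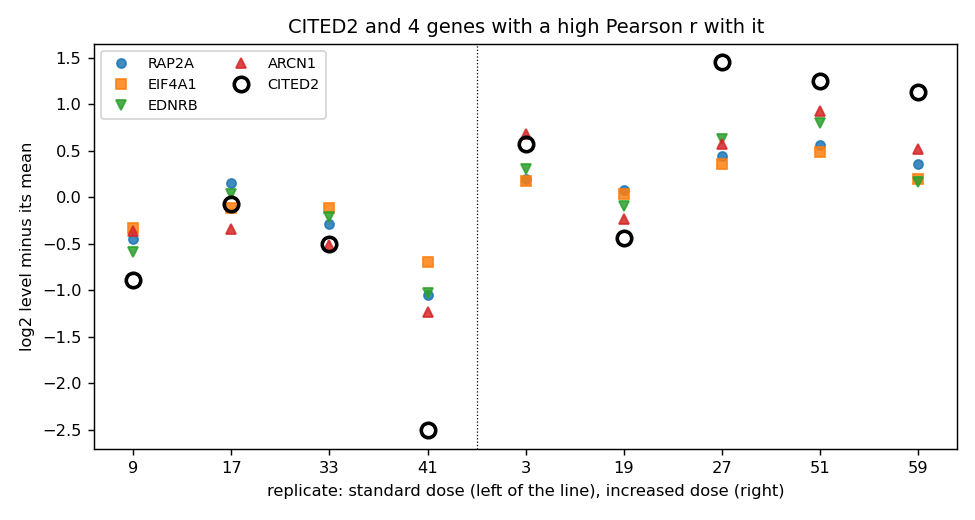
Log2 level minus its mean over the 9 libraries (y axis) of CITED2 (black circles) and 4 genes with a high Pearson r with it (colours), by replicate (x axis). All 5 genes are at their lowest at standard dose replicate 41, and at their lowest among increased dose libraries at replicate 19, and CITED2 spans the widest range.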

How the data were processed

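The authors extracted lung RNA, made 3′ mRNA-Seq libraries, used FastQC 11.8 for quality control and FLEXBAR 3.5.0 for trimming. Mapping to Sscrofa 11.1 used TopHat 2.1.1, and gene counts came from HTSeq-count 0.11.1 on Ensembl annotation 96. The deposited signal values are these gene counts after the authors divided them by a DESeq2 size factor per library. Their deposited fold changes, test statistics and p-values were not used. In each library 100.0% of values were whole multiples of 1 read (tolerance 0.01 read), and the recovered reads served edgeR and DESeq2. All per-sample columns were mapped (0 left out). The column of replicate 33 carries the number 31 in its name and was matched by the sample description.

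Log2(normalized count + 1) was fitted with limma 3.58.1 (mean-variance trend, 9 libraries, two-sided) over genes with a mean over 20, with Benjamini-Hochberg adjustment. edgeR 4.0.16 and DESeq2 1.42.0 (R 4.3.3), pseudocounts of 0.5 and 5, no filter, a filter of 10 in at least 4 libraries, TMM scaling and leaving out libraries were alternatives. The scripts were tested on simulated data. Genes lacking a symbol in the table took one from the name table (221) or from a RefSeq gene overlapping by at least 80% (663), including VHL, ELOC, EGLN2 and CITED4. Promoter sequences come from RefSeq's Sscrofa11.1. Python 3.11.15 was used with scipy 1.17.1.

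The genes and lists were chosen with earlier results of these data known. Genes named are the 7 genes, all members of 3 lists (HIF subunits, oxygen sensing, CITED family), the 3 most abundant genes of each other list, any gene called by limma and the 5 genes most correlated with CITED2, of which 1 is not reported here. PFKFB3, ERO1A, SLC2A1, PGAM1 and EPO fall outside this rule and were named after their values were seen. Nothing in the labels says that pigs shared a litter or batch.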

Additional observations from a re-analysis of the deposited data

Results flagged for a closer look

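In 6 of 38 groups of 4 or 5 libraries tested, 1 library lay far from the others for its gene by Dixon's gap test. The test used normalized counts and not the log2 scale, and all 6 flagged values were the highest of their group. Its chance rate of about 5% of groups holds for normally distributed values, which counts need not follow. The 6 flags are therefore a description and show no excess over chance. Standard dose replicate 9 was highest for ARNT (65.64 against 20.11 to 26.1 in the other 3), for EGLN1 (1966.3 against 448.0 to 664.8) and for ELOB (1864.8 against 714.2 to 776.8). It is also the library with the highest hepatocyte markers, and their part in these values was not tested. ARNT2 was at 31.08 in standard dose replicate 17 against 0 to 4.35 in the other 3, and at 61.82 in increased dose replicate 27 against 17.33 to 29.88 in the other 4. ELOB was at 834.3 in increased dose replicate 19 against 558.1 to 631.6 in the other 4.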

How the results depend on the processing

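The count of genes called was 0 under each limma and edgeR setting and 195 with DESeq2, and the cause was not tested. Between 1008 and 2373 genes had an unadjusted p under 0.05 in limma when 1 library was left out. Without standard dose replicates 9 and 41 together, the log2 fold change of EPAS1 was 0.00, that of VEGFA 0.23, that of EGLN3 0.50 and the median of the HIF subunits -0.05. The fold change of CITED2 fell from 1.79 to 1.08, with only standard dose replicates 17 and 33 left in that group. With 1 library left out in turn, the fold change of CITED2 ran from 1.28 to 2.09, that of EPAS1 from 0.37 to 1.01, that of VEGFA from -1.01 to -0.37, that of EGLN1 from -0.90 to -0.19 and the median of the VEGF and angiopoietin receptors from -0.18 to 0.48. In the same way the log2 ratio of HIF1A to CITED2 ran from 0.89 to 1.35, that of VEGFA to ARNT from 0.66 to 0.94, that of CITED2 to VEGFA from 0.91 to 1.67 and that of ARNT to EGLN3 from -0.05 to 0.37, and 0 to 2 correlated pairs passed. With replicates 9 and 41 both left out, HIF1A over CITED2 (0.75) and VEGFA over ARNT (0.65) no longer passed, and CITED2 over VEGFA (2.06) did. Both ratios with CITED2 pooled the doses and so depend on the contrast on which CITED2 was selected. ARNT and EGLN3 rest on few reads, which limits their precision. No paired analysis was possible because the 2 groups share no replicate number.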
